A study of Mus musculus with 45 samples.

Results

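The megalin and cubilin endocytosis genes are *Lrp2*, *Cubn*, *Amn*, *Dab2*, *Lrpap1*, *Ehd1*, *Clcn5* and *Ocrl*, 8 of the 55401 genes in the count tables. They were chosen by name, with no measured value in the rule, as the apical endocytic receptors of the proximal tubule and the proteins that escort, sort or acidify their route. The choice was nevertheless made with earlier results of these data known. All 8 were counted in every mouse, and all 8 entered the tests among 15991 protein-coding genes in males and 15968 in females. Each was read by translating ribosome affinity purification (TRAP) RNASeq, which sequences the mRNA held on tagged ribosomes, in kidneys of 45 mice aged 7 weeks (P49), a stage chosen in the study because cysts had not yet formed.

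Noncystic mice were *Pkd1* fl/+ (8 males, 7 females), Pkd1KO mice were *Pkd1* fl/fl (7 males, 8 females), and Pkd1KO+ciliaKO mice were *Pkd1* fl/fl; *Kif3a* fl/fl (9 males, 6 females). *Kif3a* encodes a kinesin motor subunit that cilia need, and *Pkd1* encodes polycystin-1. Every group, the noncystic mice included, was hemizygous for the ribosomal tag *R26* Rpl10a, the driver *Pax8* rtTA and the recombinase *TetO* Cre and was given oral doxycycline between P28 and P42. The noncystic mice are therefore induced heterozygotes and not untreated wild types. *Pax8* rtTA is active along the nephron epithelium, so each library pools ribosomes from many segments, and in such a pool fewer cells of one segment and less mRNA in each of its cells cannot be told apart.

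Megalin, the product of *Lrp2*, and cubilin, the product of *Cubn*, line the brush border of the proximal tubule and take filtered albumin, vitamin carriers and hormones back from the urine. Cubilin has no membrane span of its own and reaches the surface bound to amnionless, the product of *Amn*. The adaptor Dab2 links megalin to clathrin, the chaperone RAP (*Lrpap1*) keeps ligands off newly made megalin in the endoplasmic reticulum, Ehd1 works in recycling from endosomes, ClC-5 (*Clcn5*) exchanges chloride for protons in endosomes, and the phosphatase Ocrl trims phosphoinositides on early endosomes. Loss of *CLCN5* causes Dent disease and loss of *OCRL* causes Lowe syndrome, both with loss of low molecular weight protein into the urine.

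The 45 libraries held between 80874556 and 132958186 counts, so that the member with the fewest reads in any mouse, *Amn*, still had 1916. *Pkd1* counts, of which only the few deleted exons could be lost, did not separate the groups, with overlapping ranges in CPM (counts scaled to library size) of 36.3 to 84.9, 33.2 to 49.8 and 34.8 to 75.9 in noncystic, Pkd1KO and Pkd1KO+ciliaKO males and of 45.2 to 63.5 in noncystic, 33.4 to 60.3 in Pkd1KO and up to 64.2 in Pkd1KO+ciliaKO females, and no genotype comparison passed the test. They therefore do not check the labels. *Kif3a* stood at 4.9 to 7.45 CPM in Pkd1KO+ciliaKO males and at 13.8 to 29.2 in the other males. It went against the label in 2 female libraries, at 6.69 CPM in the library labelled noncystic female replicate 5 and at 20.7 CPM in the library labelled Pkd1KO+ciliaKO female replicate 6. Labels were kept, and whether these 2 libraries were exchanged was not tested. *Slc5a2*, a proximal tubule marker, also ranged widely, at 6.89 to 92.5 CPM in noncystic and 2.24 to 67.1 CPM in Pkd1KO+ciliaKO females. In Pkd1KO+ciliaKO males it stood at 2.72 to 5.53 CPM. A further 4 males lay apart from the other males on the first principal component of all mice, namely noncystic male replicate 3, Pkd1KO male replicate 4, and Pkd1KO+ciliaKO male replicates 6 and 8. They were marked because they lay past the midpoint between the male and female medians, on the side of the females. Leaving them out therefore tends by itself to widen differences between the sexes. All of these but the Pkd1KO male carry the lowest mouse numbers of the series. What those numbers stand for is not stated, and their part in the results was not tested. Results that move without these 6 libraries are given both ways. CPM values here are scaled by the trimmed mean of M values (TMM) over the 45 mice, TPM values are the authors' own and are used to compare genes with each other, and fold changes come from edgeR's quasi-likelihood test, called at an adjusted p of at most 0.05.

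*Lrp2* was by far the most abundant member and *Ocrl* the least. Mean TPM over the 45 mice was 830 for *Lrp2*, which ranked 124 among the 15828 genes with TPM in both sexes. *Dab2* followed at 234 and *Lrpap1* at 232, then *Cubn* at 158, *Clcn5* at 57.1, *Amn* at 51.0, *Ehd1* at 26.9 and *Ocrl* at 13.8, on the same scale. The order was the same in nearly every mouse except at 2 neighbours. *Dab2* exceeded *Lrpap1* in only 20 of 45 mice, and *Clcn5* exceeded *Amn* in 14 of 24 males and in 20 of 21 females, so the levels of those neighbours did not differ beyond their spread over all mice or over the males, respectively. *Lrpap1* exceeded *Cubn* in 41 of 45 mice, and each of the other 4 neighbouring pairs kept its order in 45 of 45.

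**Figure D1:**
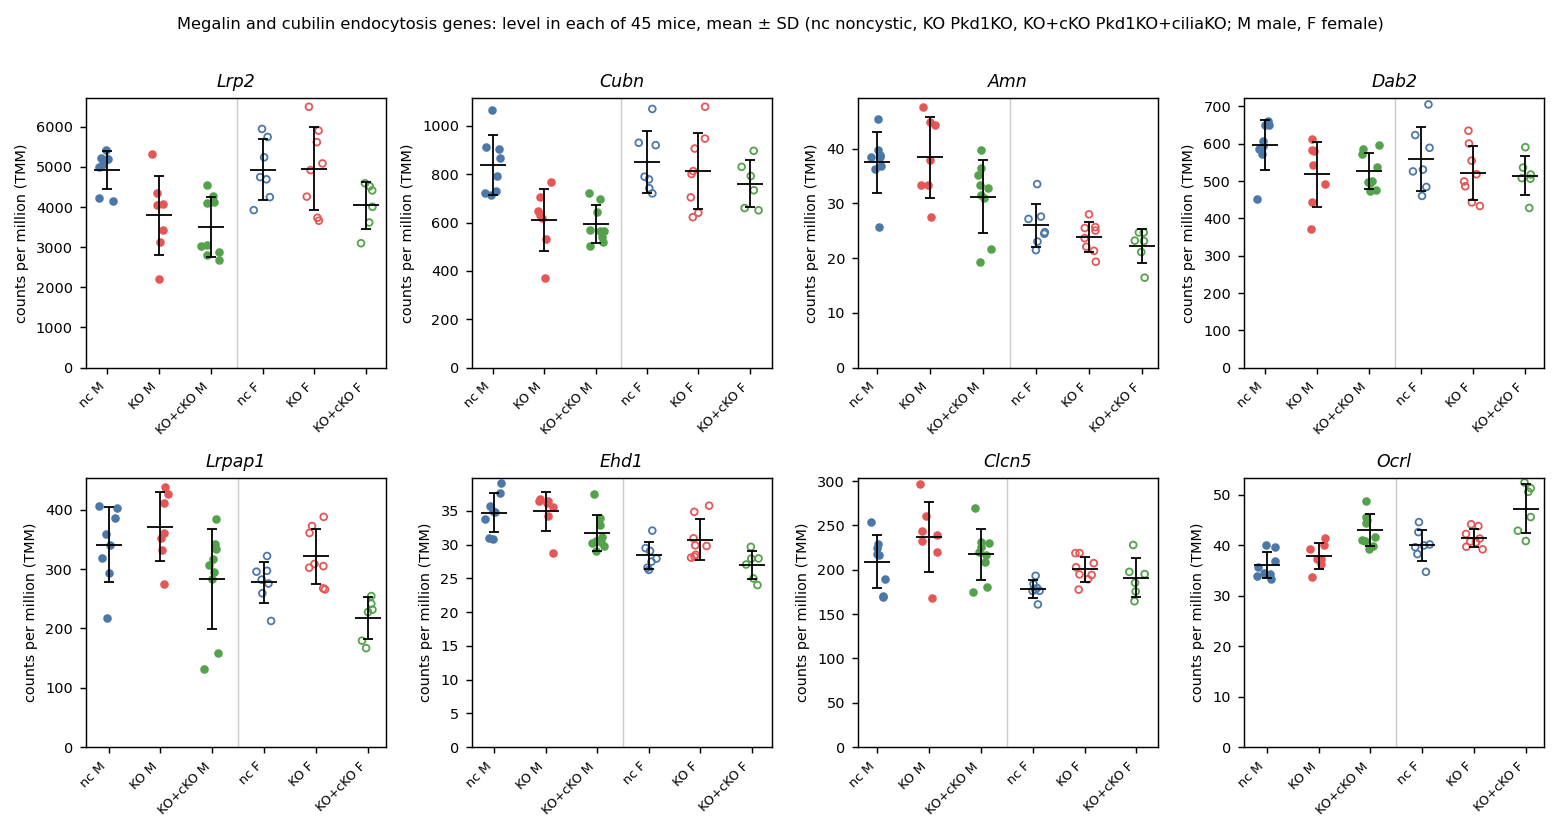
Each panel plots 1 gene in CPM on an axis that starts at 0, with 1 point per mouse in 6 groups (filled for males, open for females) and the mean ± SD in black. *Lrp2* and *Cubn* sit lower in the knockout males than in the noncystic males, *Amn* sits higher in males than in females, and the mean of *Lrpap1* is, within each sex, lowest in Pkd1KO+ciliaKO mice, a difference from noncystic mice that edgeR called in neither sex.

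*Lrp2* lies on the minus strand of mouse chromosome 2 (GRCm38, chr2:69424340-69586065) and *Cubn* on the minus strand of the same chromosome (chr2:13276338-13491813). *Amn* is at chr12:111271095-111276426 on the plus strand, *Dab2* at chr15:6299788-6440712 on the plus strand, *Lrpap1* at chr5:35091501-35105766 on the minus strand and *Ehd1* at chr19:6276725-6300096 on the plus strand. *Clcn5* (chrX:7153810-7319358, minus strand) and *Ocrl* (chrX:47912387-47965868, plus strand) are X-linked. The exons of *Cubn* share 368 bases with the opposite-strand gene *Gm13270*, which had at most 50 counts in any mouse against at least 38540 for *Cubn*, and the exons of *Dab2* share 211 bases with the opposite-strand gene *Gm18888*, at most 47 counts against at least 35001. No other member shared exon bases with an annotated gene.

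The upstream sequences of *Lrp2* and *Cubn* are shown because these 2 receptors varied together from mouse to mouse. They are the bases before both the RefSeq and the GENCODE start, from the RefSeq promoter windows on GRCm38.p6, read along the gene's own strand, with any match on either strand in capitals, of 5 motifs searched: the HNF1 element GTTAAT, the HNF4 element CAAAGTCCA, the direct repeat DR1, the E-box CACGTG and the GC box GGGCGG.
Lrp2 (chr2:69586066-69586279, minus strand, 214 bases): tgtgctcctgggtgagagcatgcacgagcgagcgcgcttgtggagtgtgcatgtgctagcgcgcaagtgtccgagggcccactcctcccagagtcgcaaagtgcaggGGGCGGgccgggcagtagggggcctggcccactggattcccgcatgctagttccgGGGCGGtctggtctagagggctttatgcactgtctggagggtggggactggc
Cubn (chr2:13491877-13492126, minus strand, 250 bases): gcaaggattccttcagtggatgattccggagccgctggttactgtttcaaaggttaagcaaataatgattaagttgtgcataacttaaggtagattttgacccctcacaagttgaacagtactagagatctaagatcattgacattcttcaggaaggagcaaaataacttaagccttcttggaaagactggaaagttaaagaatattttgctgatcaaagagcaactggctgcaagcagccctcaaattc
The *Lrp2* stretch holds the GC box at 2 places and the *Cubn* stretch holds no match to any of the 5 motifs. Over the full windows, from 250 bases before to 50 bases after the start, the GC box was found in 35.7% of 32851 promoters, the E-box in 7.15%, the HNF1 element in 7.1%, the HNF4 element in 0.475% and DR1 in 0.0396%. Of the other members with a window, *Lrpap1* held the GC box at 5 places, *Ocrl* at 2 adjoining places, and *Clcn5* and *Amn* at 1 place each, *Amn* also held the E-box, and 1 of the *Dab2* windows held the HNF1 element. The GC box and the E-box do not overlap in the *Amn* window. *Ehd1* had no entry.

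The first comparison asks what follows loss of *Pkd1* in males. *Cubn* fell in Pkd1KO males relative to noncystic males, and *Lrp2* was lower without passing the test, while the other 6 members differed by less than the spread between mice. *Cubn* ranged from 713 to 1067 CPM with a median of 828.6 in the 8 noncystic males, and from 370 to 769 CPM with a median of 632 in the 7 Pkd1KO males. The groups overlapped, although 6 of the 7 Pkd1KO males lay below every noncystic male. The difference was -0.46 ± 0.13 on the log2 scale (SE), or 0.727-fold (adjusted p = 0.0475). Without the 4 males that lay apart it was -0.39 (adjusted p = 0.0353). The call was narrow, since leaving out 1 mouse ended it in 11 of 15 cases, at adjusted p of 0.0574 to 0.0973, and it held only without noncystic replicate 3 or 5 or without Pkd1KO replicate 1 or 2. *Lrp2* ranged from 4148 to 5412 CPM with a median of 5113 in noncystic males and from 2218 to 5318 with a median of 4045 in Pkd1KO males, where replicate 4 was the lowest. Its difference was -0.38 ± 0.15 (adjusted p = 0.131) and did not pass edgeR's test with all mice kept. It passed without Pkd1KO replicate 2 (adjusted p = 0.0452) and, with all mice, in limma by voom with quality weights (adjusted p = 0.0156) and on log2(TPM + 1) and log2(TPM + 0.1) (limma, adjusted p = 0.0251 and 0.0214). On the authors' TPM scale the *Cubn* values did not overlap, at 138 to 206 in noncystic and 84.2 to 129 in Pkd1KO males. *Dab2* stood at -0.21 ± 0.11, *Clcn5* at 0.18 ± 0.11, *Lrpap1* at 0.12 ± 0.13, *Ocrl* at 0.07 ± 0.06, *Amn* at 0.03 ± 0.12 and *Ehd1* at 0.01 ± 0.06, all log2 differences with SE. The count is thus 1 of 8 members called, against 6.3% of all genes tested, and the members' median difference was 0.02 against -0.01 for all genes.

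The next comparison asks what remains when cilia are lost together with *Pkd1*. In Pkd1KO+ciliaKO males compared with noncystic males, *Lrp2* and *Cubn* fell and *Ocrl* rose, while *Amn*, *Dab2*, *Clcn5*, *Lrpap1* and *Ehd1* did not pass the test. *Lrp2* ranged from 2669 to 4549 CPM with a median of 3065 in the 9 Pkd1KO+ciliaKO males, and 7 of them lay below all 8 noncystic males. Its difference was -0.49 ± 0.12, or 0.711-fold (adjusted p = 0.0153). *Cubn* ranged from 505 to 724 CPM with a median of 565 in these males, and 8 of the 9 lay below every noncystic male, with a difference of -0.50 ± 0.10, or 0.707-fold (adjusted p = 0.00287). *Ocrl* ranged from 39.3 to 48.9 CPM with a median of 41.6, against 33.4 to 40.0 with a median of 35.1 in noncystic males, and 7 of the 9 lay above all noncystic males. Its difference was 0.25 ± 0.05, or 1.19-fold (adjusted p = 0.00574). These 3 calls held without any 1 mouse and without the 4 males that lay apart, where the differences were -0.565 for *Lrp2*, -0.57 for *Cubn* and 0.23 for *Ocrl*. On log2(TPM + 1) that of *Ocrl* fell just short (limma, 0.32, adjusted p = 0.0538).

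In all, 3 of 8 members were called in that comparison against 8.89% of all genes, with a median difference of -0.22 over the members and 0.01 over all genes. *Dab2* stood at -0.18 ± 0.08 (adjusted p = 0.161) and *Amn* at -0.26 ± 0.13 (adjusted p = 0.236). Both passed without the 4 males that lay apart, *Dab2* at -0.24 (adjusted p = 0.0177) and *Amn* at -0.20 (adjusted p = 0.0486), and *Dab2* also passed without noncystic replicate 3 alone (adjusted p = 0.0256). Without the 4 males 2240 of 15991 genes were called, against 1422 with all mice. *Lrpap1* was spread widely in Pkd1KO+ciliaKO males, from 131 to 384 CPM with a median of 307, and its difference was -0.26 ± 0.19 (adjusted p = 0.41). Its 2 lowest values there belong to replicates 6 and 8, which lay apart. *Ehd1* stood at -0.13 ± 0.06 and *Clcn5* at 0.06 ± 0.10.

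Pkd1KO and Pkd1KO+ciliaKO males were not told apart at any member. In this comparison 0 of 8 members were called by edgeR against 3.77% of all genes, with 2 members at an unadjusted p under 0.05, and DESeq2 and voom with quality weights called 1 each (*Ocrl* and *Ehd1*, respectively). *Lrp2* differed by 0.11 ± 0.17 and *Cubn* by 0.04 ± 0.13 between the knockouts. The approximate 95% interval of the *Cubn* difference ran from -0.20 to 0.29 on the log2 scale and that of *Lrp2* from -0.21 to 0.44. *Ocrl* was lower in Pkd1KO males, at 33.7 to 41.6 CPM with a median of 37.4, by 0.18 ± 0.06 without passing the test (adjusted p = 0.101). *Ehd1* stood at 0.14 ± 0.06 (adjusted p = 0.235). Both comparisons of a knockout with noncystic males share the same 8 noncystic mice, so the similar values for *Cubn* and *Lrp2* in them are not independent of each other.

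Some markers of injury and of other cells moved in the same males. Of all genes, 6.3% were called in Pkd1KO and 8.89% in Pkd1KO+ciliaKO against noncystic males. Of 8 tubule injury genes, 3 rose in Pkd1KO males compared with noncystic males (*Cdkn1a* by 1.29, *Lcn2* by 1.97 and *Krt20* by 1.61 on the log2 scale) and 3 rose in Pkd1KO+ciliaKO males (*Lcn2* by 1.70, *Cdkn1a* by 1.05 and *Spp1* by 0.73), and 0 fell in either. Their summed level was 476 to 984 CPM in noncystic, 634 to 1941 in Pkd1KO and 722 to 1491 in Pkd1KO+ciliaKO males. Of 5 podocyte genes, 2 rose in each knockout, among them *Wt1* by 0.87 in Pkd1KO and *Synpo* by 0.52 in Pkd1KO+ciliaKO males, with summed levels of 40.2 to 107, 66.3 to 175 and 71.3 to 127 CPM in the same order, and of 5 macrophage genes, *Csf1r* rose in Pkd1KO males and fell in Pkd1KO+ciliaKO males, with summed levels of 67.2 to 94.4, 92.5 to 244 and 47.5 to 93.2 CPM. The other macrophage genes passed in neither knockout and lay above 0 in both. They stood at 0.71 (*Adgre1*), 0.48 (*C1qa*), 0.32 (*C1qb*) and 0.155 (*Cd68*) in Pkd1KO+ciliaKO males. *Csf1r* dominated the macrophage sums, with male group means of 57.8 to 98.8 CPM against 0.803 to 10.6 for the others. In Pkd1KO males *C1qb* ranged from 2.07 to 50.7 CPM. No gene of these 3 lists was at 0 in all mice of a group. Endothelial markers and those of the second proximal segment passed in neither knockout against noncystic males. Among brush border genes only *Dpep1* fell in Pkd1KO (-0.82) and only *Pdzk1* in Pkd1KO+ciliaKO males (-0.27). *Slc12a1*, of the thick ascending limb, fell in Pkd1KO males (-0.72). Among markers of the first proximal tubule segment, where both receptors are abundant, *Gatm* fell in Pkd1KO males (-0.51) and *Slc5a12* (-0.62) and *Slc5a2* (-4.48) fell in Pkd1KO+ciliaKO males, while the other genes of that list of 5 did not pass the test. *Slc5a2* was also low in Pkd1KO+ciliaKO females, at a mean of 14.5 CPM against 71.9 in noncystic females, where neither receptor was called. In Pkd1KO+ciliaKO and noncystic males the means were 690.5 and 632.8 CPM for *Gatm*, 1281 and 1310 for *Slc4a4*, and 2118 and 2567 for *Slc34a1*. The summed level of the markers in that list of 5 overlapped between groups, at 3013 to 5636 CPM in noncystic, 2389 to 4909 in Pkd1KO and 3361 to 5200 in Pkd1KO+ciliaKO males. Their part in the fall of *Cubn* and *Lrp2* was not tested.

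In females neither receptor was called in any genotype comparison, and *Lrpap1* and *Ocrl* were the members that differed. In Pkd1KO compared with noncystic females 0 of 8 members were called by edgeR against 3.34% of all genes, 2 had an unadjusted p under 0.05, and DESeq2 called 1 (*Clcn5*). *Lrp2* ranged from 3924 to 5947 CPM with a median of 4746 in the 7 noncystic females and from 3660 to 6498 with a median of 5003 in the 8 Pkd1KO females, a difference of 0.01 ± 0.13. *Cubn* ranged from 721 to 1070 CPM in noncystic and from 622 to 1079 in Pkd1KO females, a difference of -0.06 ± 0.12. The approximate 95% intervals ran from -0.25 to 0.27 for *Lrp2* and from -0.29 to 0.17 for *Cubn*. *Clcn5* stood at 0.17 ± 0.05 (adjusted p = 0.1), with 6 of 8 Pkd1KO females above every noncystic female.

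*Lrpap1*, the megalin chaperone, was the member that separated the knockouts in females. It ranged from 266 to 388 CPM with a median of 307 in the 8 Pkd1KO females and from 167 to 255 with a median of 230 in the 6 Pkd1KO+ciliaKO females, so that the groups did not overlap. The difference was 0.56 ± 0.11, or 1.48-fold (adjusted p = 0.00581), and it held without any 1 mouse and without the library labelled Pkd1KO+ciliaKO replicate 6 (0.585, adjusted p = 0.00902). *Ocrl* was lower in Pkd1KO females, at 39.2 to 44.2 CPM with a median of 41.0 against 40.9 to 52.5 with a median of 48.1 in Pkd1KO+ciliaKO females. Its difference was -0.19 ± 0.06, or 0.876-fold, at the edge of the threshold (adjusted p = 0.0498). The *Ocrl* call was lost in 11 of 14 cases when 1 mouse was left out (adjusted p of 0.0599 to 0.11), and held only without Pkd1KO replicate 4 or Pkd1KO+ciliaKO replicate 2 or 6. In all 2 of 8 members were called against 11.7% of all genes, and the median difference was 0.10 over the members and -0.01 over all genes. *Lrp2* stood at 0.29 ± 0.14 (adjusted p = 0.187) and *Cubn* at 0.10 ± 0.12. In the same comparison the brush border enzymes *Ace* (0.88) and *Anpep* (0.49) were higher and *Dpep1* (-0.69) was lower in Pkd1KO females, and the summed level of the markers of the last proximal segment was 733 to 1428 CPM against 531 to 760 CPM. Their part in the *Lrpap1* difference was not tested.

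Relative to noncystic females, Pkd1KO+ciliaKO females showed the same signs as the males at *Lrp2*, *Cubn* and *Ocrl* without a call. Here 0 of 8 members were called by edgeR against 2.54% of all genes, with 3 at an unadjusted p under 0.05, while DESeq2 called 2 (*Ocrl* and *Lrpap1*) and voom called 1 (*Lrpap1*). *Ocrl* stood at 0.24 ± 0.07 (adjusted p = 0.0779) and passed without the 2 libraries that go against their labels (0.29, adjusted p = 0.038), and without noncystic replicate 5 alone (adjusted p = 0.0492). *Lrpap1* stood at -0.36 ± 0.11 (adjusted p = 0.0826) and passed without noncystic replicate 1 (adjusted p = 0.0468). *Lrp2* stood at -0.29 ± 0.12 (adjusted p = 0.177) and *Cubn* at -0.16 ± 0.11 (adjusted p = 0.395).

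**Figure D2:**
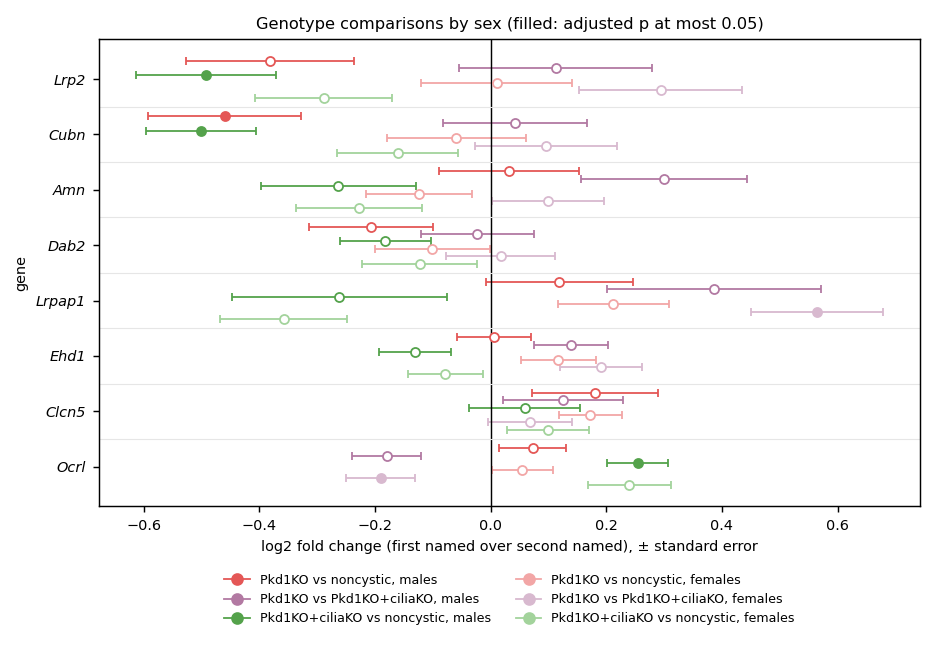
Log2 fold change with its standard error for each of the 8 genes (rows) in the 6 genotype comparisons, with saturated colours for males and pale ones for females and filled points for calls. The filled points are *Cubn* and *Lrp2* to the left and *Ocrl* to the right in males, and *Lrpap1* to the right and *Ocrl* to the left in Pkd1KO against Pkd1KO+ciliaKO females.

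The genotype effects were not shown to differ between the sexes. The interaction of sex and genotype, fitted over all 45 mice, called 0 of 8 members by edgeR, DESeq2 or voom in each of its 3 contrasts, with 1, 0 and 0 members at an unadjusted p under 0.05. Of all genes, 0.0126% were called for Pkd1KO against noncystic, 0.221% for Pkd1KO against Pkd1KO+ciliaKO and 0.0316% for Pkd1KO+ciliaKO against noncystic. The largest interaction among the members was that of *Cubn* for Pkd1KO against noncystic, where the male effect was lower than the female effect by 0.39 ± 0.17 on the log2 scale (adjusted p = 0.522), followed by *Lrp2* at -0.38 ± 0.20 (adjusted p = 0.652).

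The next question is how the members differ between the sexes within a genotype. *Amn* was higher in males in all 3 genotypes, *Ehd1* in noncystic and Pkd1KO+ciliaKO mice and *Clcn5* in noncystic mice, while *Cubn* was lower in males of both knockouts. In noncystic mice *Amn* ranged from 25.8 to 45.5 CPM with a median of 38.5 in males and from 21.5 to 33.5 with a median of 24.7 in females, with 7 of 8 males above every female. The difference, male over female, was 0.55 ± 0.11, or 1.46-fold (adjusted p = 0.00115). *Ehd1* ranged from 30.9 to 39.2 CPM in noncystic males and from 26.3 to 32.1 in noncystic females, a difference of 0.31 ± 0.06 (adjusted p = 0.00184). *Clcn5* ranged from 169 to 253 CPM in males and from 161 to 193 in females, a difference of 0.25 ± 0.08 (adjusted p = 0.0363). That of *Clcn5* was lost without the library labelled noncystic female replicate 5 (0.25, adjusted p = 0.0573) and in 10 of the other 14 cases with 1 mouse left out, and held only without noncystic male replicates 1, 2 or 3 or noncystic female replicate 3. *Lrp2* and *Cubn* stood at 0.02 ± 0.10 and -0.001 ± 0.11 between the sexes in noncystic mice, with approximate 95% intervals of -0.18 to 0.21 and -0.21 to 0.21. *Lrpap1* (0.32 ± 0.12, adjusted p = 0.061) and *Ocrl* (-0.13 ± 0.06, adjusted p = 0.111) did not pass in the fit of these 15 mice, but each passed without noncystic male replicate 3, without noncystic female replicate 3, and in limma by voom with quality weights (adjusted p = 0.00751 and 0.0495). *Lrpap1* also passed with DESeq2 (adjusted p = 0.0458), and *Ocrl* with the 45 mice in one edgeR fit (adjusted p = 0.0447), where *Clcn5* did not (adjusted p = 0.0527). With the replicate block *Clcn5* was at an adjusted p of 0.107. The count was 3 of 8 members against 27.5% of all genes.

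In Pkd1KO mice the mRNAs of cubilin and of its membrane partner differed between the sexes in opposite directions. *Amn* ranged from 27.5 to 47.7 CPM with a median of 38.0 in males and from 19.3 to 28.0 with a median of 24.3 in females, and 6 of 7 males lay above every female. Its difference was 0.69 ± 0.11, or 1.61-fold (adjusted p = 0.000224). *Cubn* differed by -0.42 ± 0.15, or 0.749-fold (adjusted p = 0.0445), with 3 of 7 males below every female. That call was lost without Pkd1KO male replicate 4, which lay apart (-0.33, adjusted p = 0.0588), and in 9 of the other 14 cases with 1 mouse left out, and held only without Pkd1KO male replicates 1 or 2 or Pkd1KO female replicates 1, 2 or 7. *Lrp2* stood at -0.39 ± 0.17 (adjusted p = 0.101), and passed without Pkd1KO male replicate 2 (adjusted p = 0.0366). *Clcn5* stood at 0.24 ± 0.09 (adjusted p = 0.0567) and *Ehd1* at 0.18 ± 0.07 (adjusted p = 0.0517), and both passed without Pkd1KO male replicate 4 (0.31, adjusted p = 0.00381, and 0.22, adjusted p = 0.0122). *Ehd1* also passed without Pkd1KO female replicate 1 or 5 (highest adjusted p = 0.0304), and *Ocrl* passed without Pkd1KO male replicate 2 or 7 or female replicate 6 (adjusted p of 0.039 to 0.0484). The count was 2 of 8 against 27.2% of all genes.

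In Pkd1KO+ciliaKO mice *Amn* differed by 0.49 ± 0.15 (adjusted p = 0.0325), *Cubn* by -0.36 ± 0.10 (adjusted p = 0.025) and *Ehd1* by 0.24 ± 0.07 (adjusted p = 0.0251), male over female. *Cubn* stood at 505 to 724 CPM in males and 651 to 897 in females, with 7 of 9 males below every female. Without the library labelled Pkd1KO+ciliaKO female replicate 6 both *Cubn* (-0.33, adjusted p = 0.0506) and *Amn* (0.475, adjusted p = 0.0605) fell short of the threshold. Leaving out Pkd1KO+ciliaKO female replicate 5 also ended the *Cubn* call (adjusted p = 0.0552), and *Ehd1* was lost without female replicate 1 or 3 (adjusted p of 0.0526 to 0.069). Without the males at replicates 6 and 8, which lay apart, *Cubn* (-0.40), *Amn* (0.625), *Ehd1* (0.25), *Clcn5* (0.26), *Lrpap1* (0.58) and *Ocrl* (-0.18) all passed, and *Lrpap1* also passed without male replicate 8 alone (adjusted p = 0.0369). Without both males 5500 of 15828 genes were called, against 2303 with all mice. Both males were marked for lying on the side of the females, so these gains are no separate support for a sex difference. The *Amn* call was otherwise lost in 8 of 15 cases with 1 mouse left out (male replicates 2, 3, 4, 5 and 7 and female replicates 3, 4 and 6, adjusted p of 0.0505 to 0.0779). The count was 3 of 8 against 14.6% of all genes. The X-linked pair lay on opposite sides of 0 in every genotype, with *Clcn5* at 0.25, 0.24 and 0.19 and *Ocrl* at -0.13, -0.13 and -0.14 in noncystic, Pkd1KO and Pkd1KO+ciliaKO mice, and *Ocrl* passed in none of the 3 in edgeR's fits of the groups compared (adjusted p of 0.111, 0.0733 and 0.189).

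The sexes also differed in segment and injury markers. The summed level of 5 markers of the last proximal segment was 2551 to 4556 CPM in noncystic males and 725 to 1236 CPM in noncystic females, and that of 8 injury genes was 476 to 984 CPM against 1244 to 1773 CPM, with 6 of the 8 lower in males and 0 higher. Of all genes, 27.5% were called between noncystic males and females, with 12.2% lower in males. The summed level of 5 markers of the first proximal segment overlapped between the sexes, at 3013 to 5636 and 3361 to 4551 CPM. The part of these differences in the sex differences of *Amn*, *Ehd1*, *Clcn5* and *Cubn* was not tested.

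**Figure D3:**
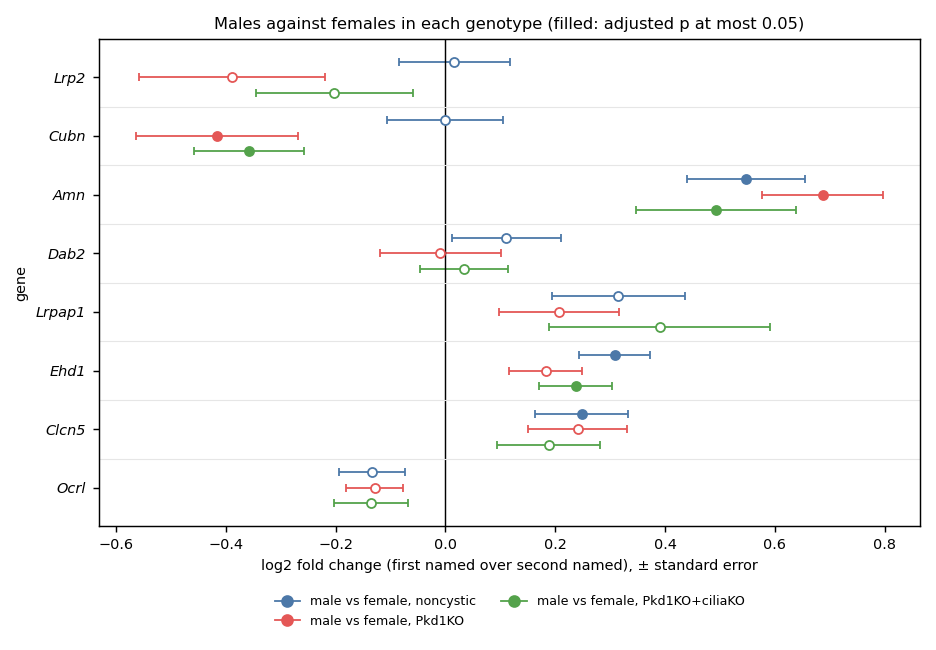
Log2 fold change of males over females with its standard error for the 8 genes (rows) in the 3 genotypes (colours), with filled points for calls. *Amn* lies right of 0 in all 3 genotypes and *Cubn* lies left of 0 in the knockouts, while in noncystic mice *Cubn* and *Lrp2* lie at 0.

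Ratios of members within a mouse, which need no scaling between libraries, put numbers on the unequal changes. They were chosen after the levels had been seen, and 3 ratios in 9 comparisons gave 27 exact two-sided permutation tests with adjustment over the 27. The *Cubn* to *Amn* ratio in TPM was 2.79 ± 0.38 (SD, n = 8) in noncystic males and 1.97 ± 0.29 (n = 7) in Pkd1KO males, a log2 difference of -0.50 (exact permutation test, adjusted p = 0.00944). It was 4.08 ± 0.66 in noncystic, 4.21 ± 0.58 in Pkd1KO and 4.29 ± 0.70 in Pkd1KO+ciliaKO females. The male ratio was lower than the female one in every genotype, by a log2 difference of -0.55 in noncystic (exact permutation test, adjusted p = 0.0042), -1.10 in Pkd1KO (adjusted p = 0.0042, exact) and -0.83 in Pkd1KO+ciliaKO mice (adjusted p = 0.0117, exact).

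*Lrp2* mRNA fell relative to that of its chaperone as well. The *Lrp2* to *Lrpap1* ratio was 3.64 ± 0.57 in noncystic males and 2.50 ± 0.44 in Pkd1KO males, a log2 difference of -0.55 (exact permutation test, adjusted p = 0.0042). In Pkd1KO+ciliaKO males it was 3.50 ± 2.06 with a range of 2.09 to 8.55, and the difference from noncystic males was -0.20 (exact permutation test, adjusted p = 0.602), or -0.43 without the libraries that lay apart (exact permutation test, adjusted p = 0.02). Under the same omission the *Cubn* to *Amn* difference between Pkd1KO+ciliaKO and noncystic males went from -0.21 (exact permutation test, adjusted p = 0.388) to -0.37 (adjusted p = 0.0135, exact). Male over female, the *Lrp2* to *Lrpap1* log2 difference was -0.61 in Pkd1KO mice (exact permutation test, adjusted p = 0.0117). Under that omission it went from -0.275 (adjusted p = 0.104, exact) to -0.387 (adjusted p = 0.0114, exact) in noncystic mice. In Pkd1KO+ciliaKO mice it went from -0.55 (adjusted p = 0.173, exact) to -0.82 (adjusted p = 0.0114, exact). The *Lrp2* to *Cubn* ratio was the steadiest, with group means between 4.75 and 5.53. It differed only between Pkd1KO and Pkd1KO+ciliaKO females among the 9 comparisons, by 0.20 on the log2 scale (exact permutation test, adjusted p = 0.0167).

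**Figure D4:**
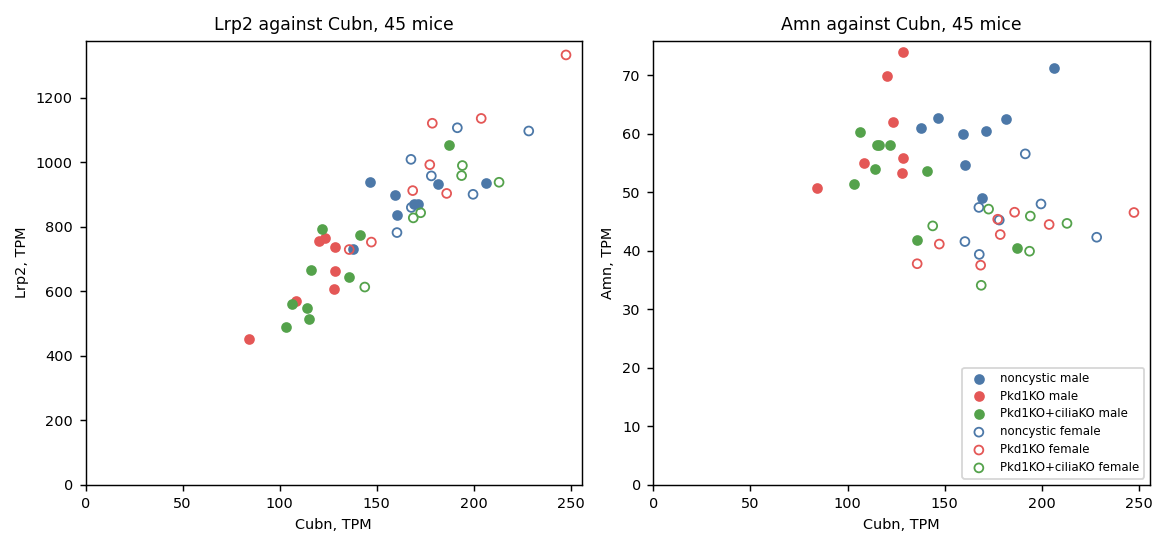
TPM of *Lrp2* (left) and of *Amn* (right) against TPM of *Cubn*, 1 point per mouse, with filled symbols for males and open symbols for females, and axes that start at 0. On the left the 45 mice follow 1 band, and on the right males and females at the same *Cubn* level hold different *Amn* levels.

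*Lrp2* and *Cubn* varied together from mouse to mouse within groups. With each mouse's log2(CPM + 0.1) taken as a deviation from its own group mean, their Pearson r was 0.863 and Spearman rho 0.824 over 45 mice (permutation within groups, both p = 1e-05, the smallest that 100000 resamples give, adjusted p = 0.00014 over 28 pairs). It was 0.853 in the 24 males and 0.88 in the 21 females, 0.817 without the 2 mice farthest from the median of *Lrp2*, and 0.799 without the 6 libraries that stand apart. *Amn* went with *Lrpap1* (r = 0.82, rho = 0.706, permutation adjusted p = 0.00014 for both), and with *Clcn5* (r = 0.585, rho = 0.554, permutation adjusted p = 0.00154 and 0.00147). *Amn* with *Cubn*, its partner in the complex, reached r = 0.387 (rho = 0.412, permutation adjusted p = 0.0359 and 0.0213), which was 0.299 without the 2 mice farthest from the median of *Cubn*. Without the 6 libraries *Amn* with *Cubn* was at r = 0.49 (permutation adjusted p = 0.0147), *Amn* with *Lrpap1* was at r = 0.597 (permutation adjusted p = 0.00308), and *Amn* with *Clcn5* no longer passed (r = 0.321, permutation adjusted p = 0.133).

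*Ocrl* ran against *Amn* (r = -0.527, rho = -0.482), *Lrpap1* (r = -0.462, rho = -0.433) and *Clcn5* (r = -0.456, rho = -0.538), with permutation adjusted p of 0.00291, 0.00989 and 0.0126 for r and 0.00733, 0.0184 and 0.00235 for rho. Without the 2 mice farthest from the median of the first-named gene of each pair these r were between -0.376 and -0.473. By r, 11 of 28 pairs passed over the 45 mice, 9 in the males alone and 2 in the females alone, namely *Lrp2* with *Cubn* and *Clcn5* with *Ocrl* (r = -0.681, rho = -0.608, permutation adjusted p = 0.0245 and 0.11). Without the 6 libraries 6 pairs passed by r, all positive, among *Lrp2*, *Cubn*, *Amn* and *Lrpap1*. There *Clcn5* with *Ocrl* was about as strong as before and passed by rho but not by r (r = -0.444, rho = -0.457, permutation adjusted p = 0.0506 and 0.0333), while *Ocrl* with *Amn* (r = -0.425, permutation adjusted p = 0.0737) and with *Lrpap1* (r = -0.279, permutation adjusted p = 0.326) passed by neither. All points of 1 mouse come from the same library, and depth and composition are shared between genes.

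**Figure D5:**
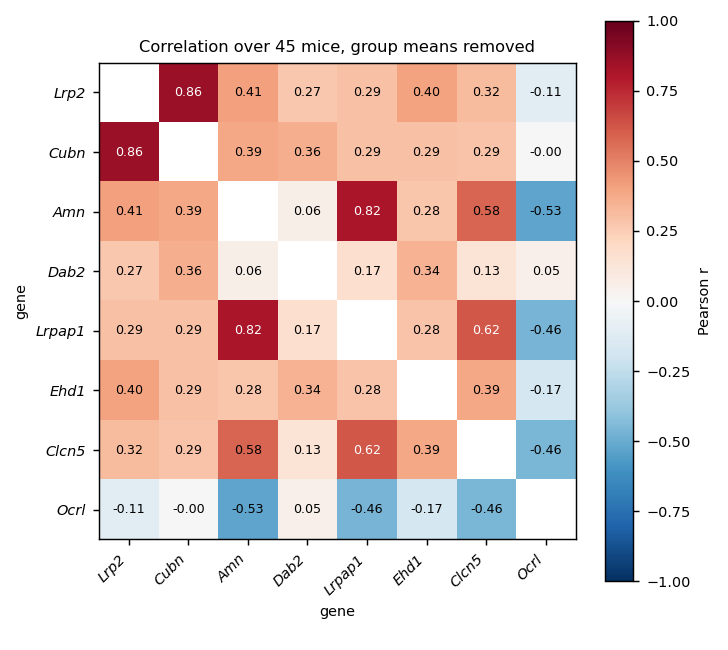
Pearson r of each pair of the 8 genes over 45 mice after removal of group means, on a colour scale from -1 to 1. The highest values are those of *Lrp2* with *Cubn* (0.86) and *Amn* with *Lrpap1* (0.82), and the row of *Ocrl* is the one with the most negative values.

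Among all 15828 genes, *Cubn* was the gene whose level was most like that of *Lrp2* over the 45 mice (Pearson r = 0.902 on log2(CPM + 0.1), group means kept), and *Lrp2* the most like *Cubn*. After it came *F5* (0.735) and *Ces2g* (0.714) for *Lrp2*, and *Itgav* (0.76) and *Ctsf* (0.746) for *Cubn*. *F5* encodes coagulation factor V, *Ces2g* a carboxylesterase, *Itgav* an integrin subunit and *Ctsf* a lysosomal cathepsin. With group means removed these values were 0.598 for *F5*, 0.583 for *Ces2g*, 0.639 for *Itgav* and 0.576 for *Ctsf*, against 0.863 between the receptors. *Amn* ranked 8373 in likeness to *Cubn* with group means kept (r = -0.03).

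The wider machinery of the route was read against the 6.3%, 3.77% and 8.89% of all genes called in males for Pkd1KO against noncystic, Pkd1KO against Pkd1KO+ciliaKO and Pkd1KO+ciliaKO against noncystic. Of 20 clathrin coat and adaptor genes, 0 were called in any genotype comparison in males by edgeR, with median differences of -0.06, -0.00295 and -0.03 in the same order, although 1 fell in the last of these without the 4 males that lay apart. Of 24 early and recycling endosome genes, 0 were called in Pkd1KO against noncystic males and 3 in Pkd1KO+ciliaKO against noncystic males, where *Rab4a*, a recycling GTPase (0.39, adjusted p = 0.00669), and *Ehbp1*, an EHD-binding protein (0.45, adjusted p = 0.0107), rose and *Inpp5b* fell. *Rab4a* was also lower in Pkd1KO than in Pkd1KO+ciliaKO males (-0.48, adjusted p = 0.00311) and females (-0.415, adjusted p = 0.00274). Of 18 lysosome genes, 0 were called in Pkd1KO against noncystic males, while 2 fell in Pkd1KO+ciliaKO males, among them *Clcn7*, a chloride exchanger of lysosomes (-0.47, adjusted p = 0.00149). The lysosome count in the latter was 7 lower of 18 without the 4 males that lay apart. In that fit 2240 of 15991 genes were called, against 1422 with all mice.

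Some relatives of megalin were also lower in knockout males. Of 12 other lipoprotein receptor genes, *Lrp4* (-0.46 ± 0.11, adjusted p = 0.0205), *Lrp5* (-0.29 ± 0.07, adjusted p = 0.0268) and *Lrp6* (-0.25 ± 0.07, adjusted p = 0.0406) fell in Pkd1KO males against noncystic males, and the same 3 fell in Pkd1KO+ciliaKO males against the same controls (-0.42, -0.32 and -0.22). *Lrp5* and *Lrp6* are Wnt co-receptors and *Lrp4* binds agrin. The family's median difference was -0.26 and -0.20, against -0.01 and 0.01 for all genes. In females none of these 3 was called, while *Vldlr* rose in both knockouts (0.30, adjusted p = 0.0156, and 0.26, adjusted p = 0.0257), *Lrp1b* fell in Pkd1KO+ciliaKO females (-1.14, adjusted p = 0.0486), and *Lrp8* (1.36, adjusted p = 0.00155) was higher in Pkd1KO than in Pkd1KO+ciliaKO females. *Lrp1b* was near the floor, with 21 to 44 counts in noncystic and 7 to 23 counts in Pkd1KO+ciliaKO females.

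Between the sexes in noncystic mice 27.5% of all genes were called, and the lists stood as follows. Of 18 lysosome genes 9 were higher and 0 lower, led by *Clcn7* (0.49, adjusted p = 0.0003) and *Neu1*, a sialidase (0.79, adjusted p = 0.000509), and of 8 proximal tubule transcription factors 6 were higher and 0 lower, led by *Nr1h4* (1.19, adjusted p = 9.78e-06) and *Hnf4g* (0.81, adjusted p = 0.000963). Of 20 clathrin genes 5 were higher and 1 lower, *Itsn1* (-0.34, adjusted p = 0.00294), a share near that of all genes, and of 24 endosome genes 3 were higher and 0 lower, a share below it. Of 13 tested cargo handling partners 5 were higher and 0 lower, among them *Fcgrt*, the neonatal Fc receptor that salvages albumin (0.45, adjusted p = 0.00879), and *Tfrc*, the transferrin receptor (0.68, adjusted p = 0.0139). In the genotype comparisons *Fcgrt* fell in Pkd1KO+ciliaKO males against noncystic males (-0.51, adjusted p = 0.0337), and in Pkd1KO against Pkd1KO+ciliaKO females *Hnf4a* (0.35, adjusted p = 0.0256) and the scaffold gene *Slc9a3r1* (0.36, adjusted p = 0.00562) were higher, alongside *Lrpap1*.

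The close relatives of the members were tested beside them. *Inpp5b*, the phosphatase most like Ocrl, was higher in males than in females (0.71, 0.47 and 0.53 in noncystic, Pkd1KO and Pkd1KO+ciliaKO mice, adjusted p = 1.54e-05, 0.00056 and 0.00066), while *Ocrl* lay slightly below 0 in each. In Pkd1KO+ciliaKO males against noncystic males *Inpp5b* fell (-0.29, adjusted p = 0.0122) and *Ocrl* rose. *Inpp5b* was also the more abundant, at 91.9 ± 5.18 TPM against 11.4 ± 1.48 TPM for *Ocrl* in noncystic males (SD, n = 8). *Dab1*, a relative of *Dab2* at 4.89 ± 1.38 TPM in noncystic males, rose in Pkd1KO+ciliaKO males (0.86, adjusted p = 0.000255). *Clcn3* was higher in males than in females in noncystic (0.48, adjusted p = 0.000319) and Pkd1KO mice (0.29, adjusted p = 0.0223), as *Clcn5* was in noncystic mice. Of the Ehd1 relatives, *Ehd2* rose in Pkd1KO females against noncystic females (0.57, adjusted p = 0.00266) and *Ehd3* was lower in Pkd1KO than in Pkd1KO+ciliaKO females (-0.72, adjusted p = 0.00533), and *Clcn4* and *Ehd4* were called in none of the 9 comparisons of genotype or sex.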

How the data were processed

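Ribosome-bound RNA was isolated from kidneys of 45 mice and sequenced after ribosomal RNA depletion (paired end). Per the labels and the study's methods, the authors used fastp 0.20.0 for trimming, STAR 2.7.9 with GRCm38.p6 for alignment, and featureCounts 2.0.0 for the deposited counts. The strand and multimapping options are not given in the sources used here. The deposited TPM values cover protein-coding genes only, with one table per sex, so that TPM levels across sexes were normalized separately. Gene coordinates and exon overlaps were read from the count tables, and symbols were matched for 55141 of 55401 genes through an annotation release that may not be the authors' own.

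From the counts, each sex kept the genes that reached 6 counts in 20% or more of its mice (15991 in males, 15968 in females, 15828 in both), which are the genes of the TPM tables. Totals were 80874556 to 132958186 counts (median 103070359), and no replicate pair agreed within sampling noise. Fold changes came from edgeR 4.0.16 (R 4.3.3) quasi-likelihood tests with TMM scaling, fitted on the groups compared, with Benjamini-Hochberg adjustment over all genes and a threshold of 0.05. The fit was checked on simulated counts. Ratios were tested by exact permutation and correlations with 100000 permutations. Each mouse is a separate animal. Alternatives were DESeq2 1.42.0, limma 3.58.1 (voom with quality weights, and log2(TPM + 1) or log2(TPM + 0.1)), DESeq2 size factors, no filter on low counts, wider fits, a replicate block, and leaving out single mice, the 4 males or the 2 female libraries. The last 2 omissions were chosen after seeing the data.

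The 8 members, the gene lists and the markers were chosen with earlier results of these data known. The genes named are the 8 members, their close relatives, up to 2 called genes of smallest p from each list and comparison, and the 3 genes most like *Lrp2* and the 3 most like *Cubn*. *Lrp6*, *Lrp1b* and the marker genes were named after their values were seen. Promoter sequences are from RefSeq (GRCm38.p6), found for 7 of 8 members. Some list genes are not reported here by name. Set tests were not used.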

Additional observations from a re-analysis of the deposited data

Results flagged for a closer look

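Dixon's ratio (the gap of the extreme mouse to its nearest neighbour over the group's range) passed its 95% critical value in 3 of 48 groups of CPM values (8 genes in 6 groups), and chance alone gives about 1 in 20. *Amn* in noncystic male replicate 3 was 25.8 CPM, far below the other noncystic males, with a ratio of 0.538 against 0.526. *Dab2* in the same mouse was 453 CPM, with a ratio of 0.565 against 0.526. *Ehd1* in Pkd1KO male replicate 4 was 28.7 CPM, with a ratio of 0.688 against 0.568. Both mice are among the 4 males that lay apart on the first principal component, and their part in these values was not tested.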

How the results depend on the processing

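Of 113 alternatives run, 81 kept the count of calls within 1.5 times that reported and 0 were scored as reversed. A count of calls has no sign, so this score does not cover the direction of single genes or pairs. Some correlations changed sign with group means kept, among them that of *Cubn* with *Amn* (r from 0.387 to -0.0334). The counts below are members called out of 8. For Pkd1KO against noncystic males (1), the count was 0 with no filter on low counts, and 2 with voom and on either TPM scale, *Lrp2* being the gene gained. For Pkd1KO against Pkd1KO+ciliaKO males (0) it was 1 with DESeq2 and 1 with voom. For Pkd1KO+ciliaKO against noncystic males (3) it was 5 with voom, 5 without the 4 males and 2 on log2(TPM + 1), which lost *Ocrl*. Over all genes, calls in Pkd1KO against noncystic males went from 1008 to 929 with no filter and 1475 with voom. They went to 669 on log2(TPM + 0.1) and fewer still on log2(TPM + 1). Between the male knockouts they went from 603 to 1234 with DESeq2 and 1389 with voom. In Pkd1KO+ciliaKO against noncystic males they went from 1422 to 2803 with voom, 2240 without the 4 males and 1197 on log2(TPM + 1). In females, Pkd1KO against noncystic (0) gave 1 with DESeq2. Pkd1KO against Pkd1KO+ciliaKO (2) gave 1 with DESeq2 size factors, with no filter and with voom. Pkd1KO+ciliaKO against noncystic (0) gave 2 with DESeq2 and 1 with the 3 genotypes in one fit, with voom, on either TPM scale and without the 2 female libraries. Over all genes, calls in females went from 533 to 962 in the first of these comparisons. In the second they went from 1869 to 1851, 1697 and 2634. In the third they went from 405 to 1279, 487, 1357, 1000, 1007 and 926. Between the sexes, noncystic mice (3) gave 5 with voom, 5 without the 4 males, 4 with DESeq2 and 2 without the 2 female libraries, which lost *Clcn5*. Pkd1KO mice (2) gave 4 with DESeq2, 5 with the 45 mice in one fit, 4 with DESeq2 size factors and 5 with voom. Pkd1KO+ciliaKO mice (3) gave 6 with voom, 1 without the 2 female libraries and 6 without the 4 males. Over all 15828 genes, calls between the sexes went from 4353 to 6289, 5623, 4885 and 3836 in noncystic mice. In Pkd1KO mice they went from 4313 to 4880, 4844, 4293 and 5799. In Pkd1KO+ciliaKO mice they went from 2303 to 6584, 1854 and 5500. Called correlations went from 11 to 6 of 28 pairs without these 6 libraries. The causes were not tested. Leaving out single mice gave 0 to 2, 0 to 0 and 3 to 4 in the male genotype comparisons in the order above, 0 to 0, 1 to 2 and 0 to 1 in the female ones, 2 to 5, 1 to 4 and 1 to 4 between the sexes, and 0 to 0 in the interactions. Replicate numbers did not pair the mice, since same-numbered mice reached correlations below 0 in every comparison, and at most 2 of the 6 to 8 pairs in a comparison correlated best with their own number. With the replicate block the counts were 0 for Pkd1KO against noncystic males, 1 for Pkd1KO against Pkd1KO+ciliaKO females, and between the sexes 2 in noncystic (*Clcn5* lost), 1 in Pkd1KO and 1 in Pkd1KO+ciliaKO mice, and the block left 3 in Pkd1KO+ciliaKO against noncystic males. Over all genes the block gave 800, 612, 3334, 3634, 1804 and 764 calls in the same order. On log2(TPM + 0.1) the median of all genes moved to -0.11 and -0.10 for Pkd1KO against Pkd1KO+ciliaKO in males and females and to 0.13 for Pkd1KO+ciliaKO against noncystic females, and the share of calls that were higher went from 52.7% to 27.9%, from 60.2% to 27.9% and from 26.4% to 86.8%, so member differences on TPM are relative to those shifts. With at least 1916 counts per member and mouse, the spread between mice sets the precision.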
